A study of Homo sapiens with 6 samples.

Results

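The 10 genes described here encode receptors, a kinase, the central transcription factor, feedback inhibitors and transcriptional targets of the STAT3 pathway. They are the receptor genes LIFR, OSMR and IL6ST, the kinase gene JAK1, STAT3 itself, the feedback inhibitors SOCS3 and SOCS2, and the regulators BCL3, BCL6 and CEBPD. The members were chosen by name from the 58219 genes counted, with earlier results of these data known. All 10 had enough reads to be tested. The RNA came from SNU-449, a line established from a human liver cancer (hepatocellular carcinoma). In the group called Yes WT (3 libraries) the cells stably expressed the wild-type tyrosine kinase Yes, and in the group called Yes T348I (3 libraries) they stably expressed a form of Yes with a substitution at its gatekeeper position, at the edge of the pocket where kinase drugs bind. Cells of both groups received dasatinib, a drug that blocks kinases of the SRC family and ABL, at 100 nM, so every value below is a level in drug-treated cells and none comes from untreated cells. The sources used here give neither the promoter nor the number of clones behind each stable line, nor the time in drug. Whether libraries that share a group were grown as separate cultures is also unstated, so p-values measure the spread between libraries, which may be technical.

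Cytokines of the IL6 family signal through receptors that share the subunit gp130, the product of IL6ST. IL6 binds its own receptor IL6R, LIF binds LIFR, and oncostatin M binds OSMR or LIFR, each together with gp130. Kinases of the JAK family, JAK1 foremost, sit on these receptors and phosphorylate STAT3, which then pairs, enters the nucleus and binds DNA at palindromic sites. SRC family kinases, to which Yes belongs, can also phosphorylate STAT3. SOCS3 is induced by STAT3 and shuts off gp130 and its JAK kinases. In liver the pathway is best known for the acute phase response, in which hepatocytes raise fibrinogen and other plasma proteins. RNA counts report transcript levels and do not measure STAT3 phosphorylation or receptor protein.

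Sequencing gave 14360137 to 16117573 gene counts per library in Yes WT and 14392286 to 19608763 in Yes T348I. YES1, which can hold reads of the native and of the introduced gene, averaged 364 ± 6.17 CPM (counts scaled to a common library size with TMM factors, SD, n = 3) in Yes WT libraries and rose to 409 ± 26.2 CPM in those of Yes T348I (edgeR adjusted p = 9.94e-05). The epithelial keratins KRT8 and KRT18 were abundant, with means of 163 to 261 CPM over genes and groups. Most hepatocyte genes were low: 8 of the 12 hepatocyte markers averaged under 1 CPM, and ALB, which encodes albumin, had at most 10 counts in any library. The rest were the keratins, TF and AFP. TF fell from 2.19 to 0.785 CPM (log2 fold change -1.37, edgeR adjusted p = 1.58e-04). AFP, at 1.64 and 1.11 CPM, did not pass (edgeR adjusted p = 0.0559). Markers of other cell types were low for leukocytes, with a summed level over 7 genes of 3.05 to 3.61 CPM in Yes WT and 1.55 to 1.79 CPM in Yes T348I and with CD3E at 0. They were low for endothelium too, at 1.14 to 1.53 against 0.480 to 0.564 CPM over 5 genes, with TEK at 0. Between Yes WT and Yes T348I the mean of CD14 went from 2.43 to 0.721 CPM, and that of PECAM1 from 0.847 to 0.194 CPM. The part of these markers in the results below was not tested. Of 8 stellate cell and fibroblast markers 4 averaged 1 CPM or more. Levels summed over the list were 251 to 274 CPM in Yes WT libraries and 277 to 291 in those of Yes T348I. Means of the groups, Yes WT first, were 132 and 145 CPM for RGS5, and 113 and 125 CPM for COL1A1. LRAT averaged 8.25 and 7.82 CPM, and ACTA2 6.71 and 4.47 CPM. RGS5 and COL1A1 were called higher, ACTA2 was called lower and LRAT was not called. DES, DCN, LUM and PDGFRB had at most 9 counts in any library.

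The DNA around the transcription start is shown for 3 members that fell in Yes T348I, to set a start site with several STAT-like motifs beside others with none. STAT dimers recognise the palindrome TTCNNNGAA, which reads the same on both strands and was searched in windows from 250 bases before to 50 bases after each RefSeq start site. Capitals mark its matches, and all windows are GRCh38.p14 and printed 5′ to 3′ on the strand of the gene. The BCL6 window, the first of its pair of annotated starts, is on the minus strand at chr3:187745419-187745718, BCL3 on the plus strand at chr19:44748458-44748757 and OSMR on the plus strand at chr5:38845762-38846061.
BCL6: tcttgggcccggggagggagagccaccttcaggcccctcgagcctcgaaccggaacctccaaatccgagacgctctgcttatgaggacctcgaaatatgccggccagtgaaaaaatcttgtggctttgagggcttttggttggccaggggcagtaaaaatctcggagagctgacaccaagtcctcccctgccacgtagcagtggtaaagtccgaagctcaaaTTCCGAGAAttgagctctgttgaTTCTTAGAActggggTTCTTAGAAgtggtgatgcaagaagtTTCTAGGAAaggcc
BCL3: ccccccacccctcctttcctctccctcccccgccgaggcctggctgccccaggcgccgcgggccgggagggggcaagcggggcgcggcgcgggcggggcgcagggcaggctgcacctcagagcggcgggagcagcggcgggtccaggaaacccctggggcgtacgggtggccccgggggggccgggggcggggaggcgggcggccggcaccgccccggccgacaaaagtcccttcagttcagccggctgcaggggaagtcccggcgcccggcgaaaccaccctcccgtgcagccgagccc
OSMR: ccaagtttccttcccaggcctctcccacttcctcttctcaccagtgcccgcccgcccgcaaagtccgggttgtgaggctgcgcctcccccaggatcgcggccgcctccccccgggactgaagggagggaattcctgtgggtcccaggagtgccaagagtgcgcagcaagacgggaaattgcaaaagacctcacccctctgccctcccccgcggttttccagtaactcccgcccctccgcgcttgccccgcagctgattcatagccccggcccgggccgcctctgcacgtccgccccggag

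The BCL6 window held 4 matches, and the windows of BCL3 and OSMR held none. The matches in BCL6 began 28 and 5 bases before the start site and at bases 11 and 37 after it, and they read TTCCGAGAA, TTCTTAGAA, TTCTTAGAA and TTCTAGGAA. Among 35116 start site windows of the same length in the RefSeq table, 7.66% held at least 1 match and 0.0199% (7 windows) at least 4. BCL6 protein is itself known to bind a motif much like that of STAT factors. The table held 14 windows for 8 of the 10 members, and the other windows with a match were a pair of alternative LIFR starts with 1 each, TTCCTTGAA at chr5:38595562-38595570 and TTCATCGAA at chr5:38557641-38557649. SOCS2 and CEBPD were not in the table. A match is a description of the letters in this window and does not show binding, and a window without one says nothing about STAT factors elsewhere at the gene.

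**Figure D1:**
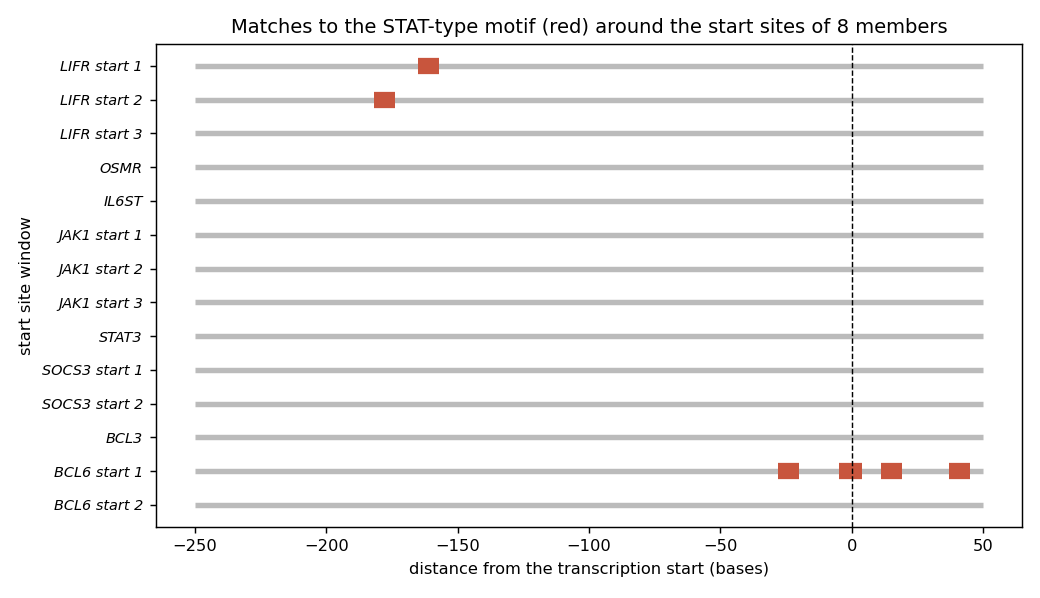
Position of TTCNNNGAA matches (red) in the 14 start site windows of 8 members, from 250 bases before to 50 bases after the start (dashed line at 0). The first BCL6 window holds 4 matches close to its start, 2 LIFR windows hold 1 each, and the other windows hold none.

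Of the 10 members, 3 rose and 4 fell in Yes T348I, and 3 did not pass the test. Across all 14723 genes tested differences were frequent too: 28.0% of genes were higher and 27.3% lower, 55.3% in all, at an adjusted p under 0.05 (edgeR, Benjamini-Hochberg over all genes tested), so the number of members called is near the background. The libraries of the groups stood fully apart for 7 members, 3 higher and 4 lower in Yes T348I, where 59.5% of all genes showed this (29.9% higher, 29.7% lower). The median log2 fold change was 0.01 over the members and -0.01 over all genes tested. Only BCL6 changed at least 2-fold, downwards, as 3.21% of all genes did (0.876% rose as far, 4.08% in either direction). Against a minimum change of 1.2-fold, 4 members were lower (12.5% of all genes) and 1 was higher (9.47%), 5 in all (21.9%). The falls were in OSMR and the target genes BCL3, BCL6 and CEBPD, and the rises in JAK1, SOCS3 and SOCS2.

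**Figure D2:**
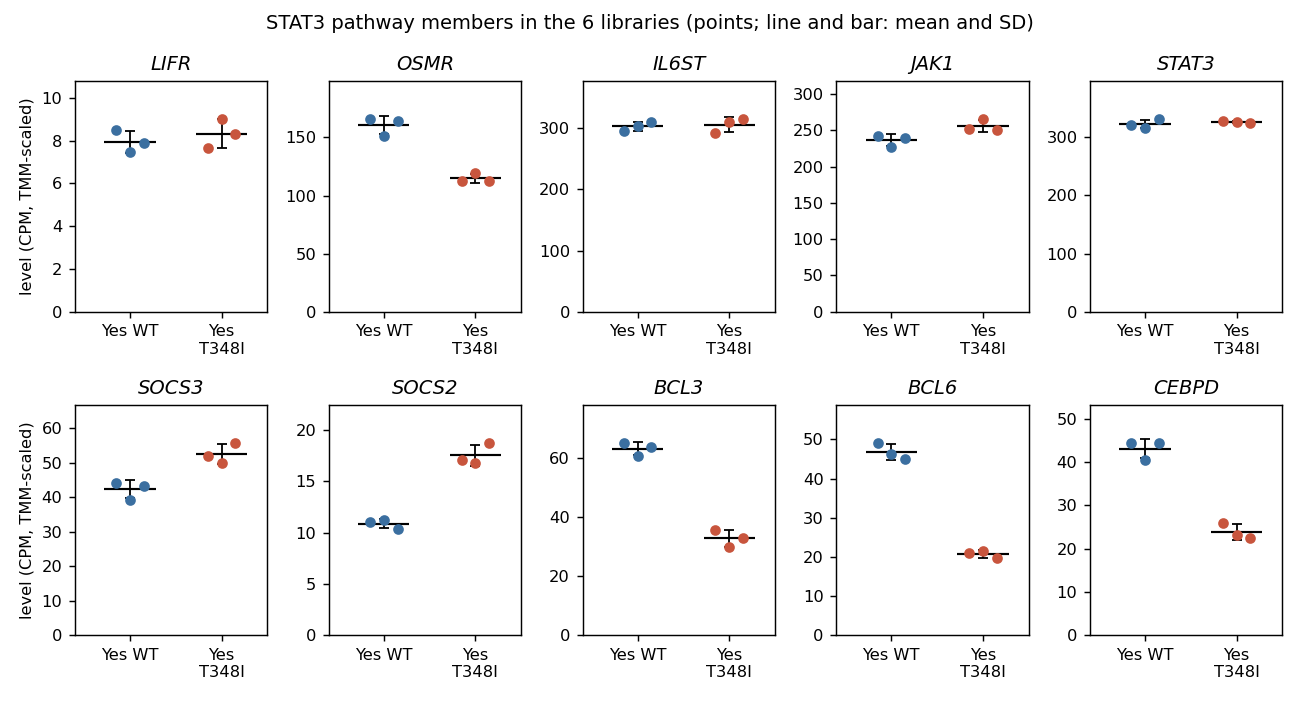
Level of each member in CPM (y axis, from 0) in the 3 Yes WT libraries (blue) and the 3 Yes T348I libraries (red), with mean and SD. The groups stand apart for OSMR, JAK1, SOCS3, SOCS2, BCL3, BCL6 and CEBPD and overlap for LIFR, IL6ST and STAT3.

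Among the receptors, OSMR was lower in Yes T348I while the shared subunit IL6ST and LIFR showed no difference past the test. OSMR (ENSG00000145623.12, chromosome 5, 38845858 to 38945596, plus strand), the oncostatin M receptor, was at 165, 151 and 165 CPM in Yes WT replicates 1 to 3 and at 113, 119.5 and 113 CPM in Yes T348I replicates 1 to 3. Every Yes T348I library lay below every Yes WT library. The log2 fold change was -0.48 (SE 0.04, edgeR adjusted p = 6.96e-14), a level of 0.717 of that in Yes WT. Exons of OSMR overlap the gene RICTOR on the opposite strand, and reads on the opposite strand of OSMR were 2.65% of those counted for it. With both strands counted together its log2 fold change was again -0.48. As in every bulk library, fewer cells with the RNA and less of it per cell cannot be told apart here.

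IL6ST (ENSG00000134352.19, chromosome 5, 55935095 to 55994993, minus strand) was at 295, 303 and 311 CPM in Yes WT and at 292, 311 and 314 CPM in Yes T348I. The libraries of the groups were interleaved. The log2 fold change of 0.01 (edgeR adjusted p = 0.78, SE 0.03) had a 95% interval of -0.06 to 0.08, and its sign turned negative when libraries were scaled by size alone or by upper quartile factors. LIFR (ENSG00000113594.9, chromosome 5, 38474963 to 38608354, minus strand), the LIF receptor, was low, at 8.49, 7.47 and 7.89 CPM in Yes WT and 7.64, 8.98 and 8.32 CPM in Yes T348I. It rested on 108 to 149 counts per library, and the interval of its log2 fold change was accordingly wide, from -0.17 to 0.27 (estimate 0.05, SE 0.11, edgeR adjusted p = 0.72). LIFR and OSMR lie close together on chromosome 5.

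The balance of the receptors that partner gp130 was read within each library, which makes it independent of library scaling. OSMR had 19.5, 20.3 and 20.9 counts for each LIFR count in Yes WT and 14.8, 13.3 and 13.6 in Yes T348I. The ratio was lower in all 3 Yes T348I libraries than in any Yes WT library, by 0.54 on the log2 scale (mean 20.2 ± 0.689 against 13.9 ± 0.778, SD, n = 3 each). The two-sided exact permutation p was 0.10 and 0.15 after adjustment over the 3 ratios tested, and 0.10 is the smallest p that 3 libraries against 3 allow.

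JAK1 rose slightly and STAT3 did not pass the test. JAK1 (ENSG00000162434.11, chromosome 1, 64833229 to 64966504, minus strand) was at 243, 227 and 239 CPM in Yes WT and 252, 265 and 251 CPM in Yes T348I. The groups stood apart by a narrow margin, and the log2 fold change was 0.11 (SE 0.03, edgeR adjusted p = 0.0045). This call was lost with scaling by library size alone (0.08, edgeR adjusted p = 0.060), with upper quartile factors (0.07, edgeR adjusted p = 0.064) and without Yes WT replicate 2 (0.09, edgeR adjusted p = 0.057). STAT3 (ENSG00000168610.14, chromosome 17, 42313324 to 42388568, minus strand) was at 321, 316 and 330.5 CPM in Yes WT and 328, 326 and 325 CPM in Yes T348I. The 3 Yes T348I values fell inside the range of Yes WT. Its log2 fold change of 0.01 (edgeR adjusted p = 0.73, SE 0.03) had a 95% interval of -0.05 to 0.08. The sign turned negative with library size alone and with upper quartile factors.

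Both feedback inhibitors were higher in Yes T348I. SOCS2 (ENSG00000120833.13, chromosome 12, 93569814 to 93583487, plus strand), best known as a brake on growth hormone receptor signalling through STAT5, was at 11.0, 11.2 and 10.4 CPM in Yes WT and 17.1, 16.7 and 18.7 CPM in Yes T348I. Every Yes T348I library was above every Yes WT library, and the log2 fold change was 0.68 (SE 0.09, edgeR adjusted p = 5.68e-09), a 1.61-fold rise. An antisense gene, SOCS2-AS1, overlaps its exons, and with both strands counted the log2 fold change was 0.70. SOCS3 (ENSG00000184557.4, chromosome 17, 78356778 to 78360077, minus strand) was at 44.2, 39.3 and 43.3 CPM in Yes WT and 51.8, 49.9 and 55.6 CPM in Yes T348I. Again every Yes T348I library was above every Yes WT library. SOCS3 rose by 0.31 on the log2 scale with an SE of 0.05 (edgeR adjusted p = 5.27e-06), but did not pass against a minimum change of 1.2-fold (edgeR adjusted p = 0.25). The count of SOCS3 for each SOCS2 count was 4.02, 3.51 and 4.17 in Yes WT and 3.03, 2.98 and 2.98 in Yes T348I. That ratio was lower in Yes T348I by 0.38 on the log2 scale, with no overlap (two-sided exact permutation p = 0.10, adjusted p = 0.15, n = 3 each).

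**Figure D3:**
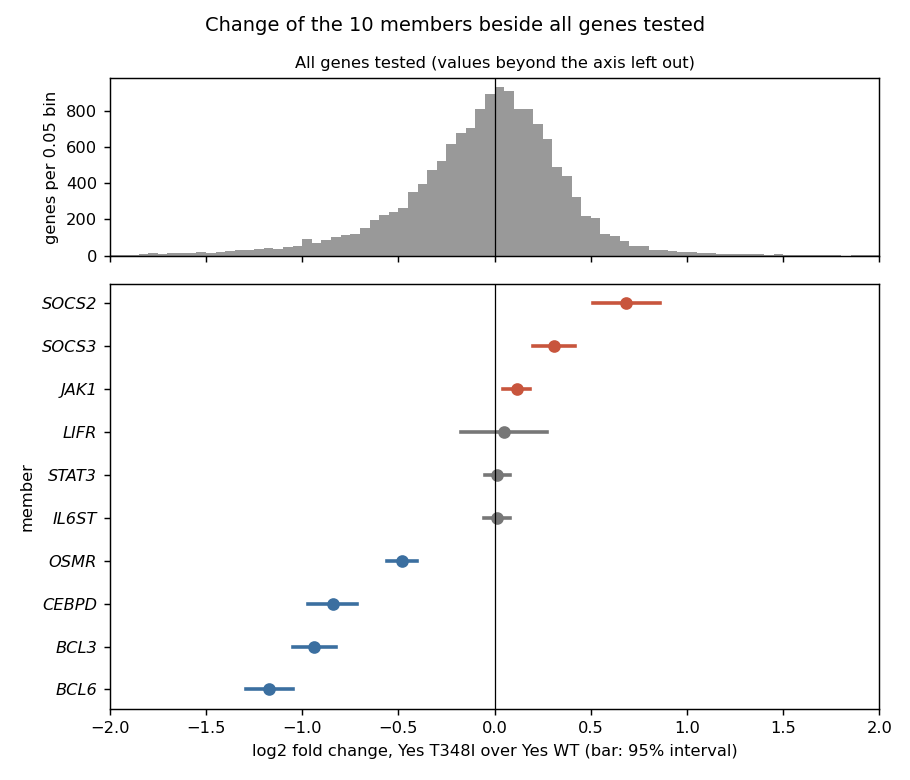
Top, number of genes in each 0.05 bin of the log2 fold change (Yes T348I over Yes WT) over all genes tested within the plotted range of -2 to 2. Bottom, the same quantity for the 10 members with its 95% interval (red, higher; blue, lower; grey, not past the threshold), which runs from -1.17 for BCL6 to 0.68 for SOCS2.

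The 3 target genes fell together and had the largest changes of the members. BCL6 (ENSG00000113916.17, chromosome 3, 187721377 to 187745727, minus strand), a zinc finger repressor of transcription, was at 49.0, 46.4 and 45.1 CPM in Yes WT and 21.0, 21.6 and 19.7 CPM in Yes T348I. No Yes T348I library reached the lowest Yes WT library. The log2 fold change was -1.17 (SE 0.06, edgeR adjusted p = 3.93e-20), and 97.4% of all genes tested had a smaller change in size. Its 4 palindromes at the start site are those printed above.

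BCL3 (ENSG00000069399.14, chromosome 19, 44747705 to 44760044, plus strand), a nuclear protein of the IkB family that works with the NF-kB subunits p50 and p52, was at 65.1, 60.8 and 63.8 CPM in Yes WT. In Yes T348I it was at 35.6, 29.9 and 33.0 CPM. Its level in Yes T348I was 0.519 of that in Yes WT (log2 fold change -0.94, SE 0.06, edgeR adjusted p = 2.84e-18). CEBPD (ENSG00000221869.4, chromosome 8, 47736909 to 47739086, minus strand), a C/EBP transcription factor induced in the acute phase response, was at 44.3, 40.6 and 44.3 CPM in Yes WT and 26.0, 23.2 and 22.4 CPM in Yes T348I. Again the groups did not overlap, and the log2 fold change was -0.84 (SE 0.06, edgeR adjusted p = 3.98e-15). Reads on the opposite strand of CEBPD were 8.06% of those counted for it, the highest share among the members, and with both strands counted its log2 fold change was -0.86.

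BCL6 fell to 0.444 of its Yes WT level, further than BCL3 by the point estimates, but the ratio between them did not separate the groups. BCL6 had 0.753, 0.762 and 0.706 counts for each BCL3 count in Yes WT and 0.590, 0.722 and 0.598 in Yes T348I. The second Yes T348I library lay within the Yes WT range (difference -0.22 on the log2 scale, two-sided exact permutation p = 0.20, also 0.20 adjusted, n = 3 each).

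Levels of different members were compared as CPM per kilobase of annotated exon, which depends on the gene models used (GENCODE 29). In Yes WT the order ran from JAK1 (37.4 ± 1.30, SD, n = 3) and STAT3 (36.6 ± 0.806) through IL6ST (32.6 ± 0.833), OSMR (22.4 ± 1.10), CEBPD (19.8 ± 0.998), BCL3 (19.5 ± 0.671) and SOCS3 (15.5 ± 0.947) to BCL6 (7.88 ± 0.338), SOCS2 (1.603 ± 0.0649) and LIFR (0.670 ± 0.0432). JAK1 and STAT3 overlapped in this order, as did CEBPD and BCL3, and the other neighbours did not. In Yes T348I, SOCS3 (19.2 ± 1.07 CPM per kilobase, SD, n = 3) stood above OSMR (16.0 ± 0.539), CEBPD (11.0 ± 0.859) and BCL3 (10.1 ± 0.885), all of which were above it in Yes WT. The receptor subunit IL6ST, JAK1 and STAT3 kept the 3 highest places in both groups, and SOCS2 and LIFR the lowest.

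Beyond the members, 83 further genes of the pathway were read from lists of ligands, receptors, JAK and STAT genes, inhibitors, targets, acute phase proteins and growth hormone signalling. Of these 60 had enough reads to be tested, and 17 rose and 26 fell, against 28.0% higher and 27.3% lower among all genes. Their median log2 fold change was -0.06.

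Of 10 ligand genes 5 could be tested, and 3 rose while none fell (median log2 fold change 0.19). Among all genes tested 28.0% rose and 27.3% fell, and the median was -0.01. Against a minimum change of 1.2-fold only LIF was higher. IL6 (edgeR adjusted p = 0.0605) and IL11 did not pass that test. LIF was the most abundant and rose from 239 ± 2.82 to 307 ± 8.84 CPM (SD, n = 3 each, log2 fold change 0.36, edgeR adjusted p = 1.29e-12). IL6 rose from 10.4 ± 0.548 to 13.9 ± 0.694 CPM (0.42, edgeR adjusted p = 1.39e-04), and IL11 from 21.8 ± 1.03 to 24.8 ± 2.63 CPM with overlapping libraries (0.19, edgeR adjusted p = 0.024). The IL11 call was lost under 7 of 14 alternatives, among them without Yes T348I replicate 1 or 3 and without Yes WT replicate 1 or 2 (edgeR adjusted p = 0.0734 to 0.108). CLCF1 at 17.8 and 19.3 CPM and EBI3 at 6.34 and 5.89 CPM (Yes WT and Yes T348I) did not pass. OSM, which encodes the ligand of OSMR, had 0 counts in all 6 libraries, as did CTF1 and IL31, and 0 counts allow up to 0.153 to 0.209 CPM per library (3 counts, counting error only). CNTF and IL27 had at most 12 counts in any library.

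Of 10 receptor genes, the 3 members included, 9 were tested, 2 rose and 4 fell, with a median log2 fold change of -0.23. Beside this, 28.0% of all genes tested rose and 27.3% fell, with a median of -0.01. IL6R, which binds IL6 itself, had the largest difference of these 9. It was at 42.8, 39.4 and 41.1 CPM in Yes WT and 15.9, 16.2 and 13.8 CPM in Yes T348I. Each Yes T348I value was far under each Yes WT value (log2 fold change -1.42, SE 0.07, edgeR adjusted p = 2.36e-21). IL6R and OSMR were thus lower, while IL6ST, which they share, was not called. Other receptors that bind a cytokine went both ways: IL11RA fell, IL27RA and IL31RA rose, and LIFR was not called. IL11RA fell from 6.30 ± 0.339 to 4.64 ± 0.364 CPM (log2 fold change -0.43, edgeR adjusted p = 0.0054). IL31RA, which pairs with OSMR, rose from 18.6 ± 2.53 to 22.2 ± 1.63 CPM (0.24, edgeR adjusted p = 0.010) with overlapping libraries. IL27RA rose from 12.9 to 14.99 CPM (edgeR adjusted p = 0.033) and IL10RB fell from 12.0 to 10.3 CPM (edgeR adjusted p = 0.035). IL22RA1, at 3.59 and 2.75 CPM, did not pass (edgeR adjusted p = 0.078), and CNTFR had at most 4 counts. Without Yes T348I replicate 3 the calls of IL27RA, IL31RA and IL10RB were lost (edgeR adjusted p = 0.18, 0.056 and 0.065). The IL31RA call was also lost without Yes WT replicate 2 (0.146), the IL27RA call without Yes WT replicates 1 (0.103) or 3 (0.0889), and the IL10RB call without Yes T348I replicate 1 (0.133) or any Yes WT library (0.0588 to 0.0937), all as edgeR adjusted p. Over all 14 alternatives these calls were lost 2, 6 and 7 times.

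Of the other kinases, JAK2 fell from 22.6 ± 1.96 to 19.5 ± 1.54 CPM (SD, n = 3 each, log2 fold change -0.23, edgeR adjusted p = 0.0088), a call that was lost without Yes WT replicate 1 (0.13) or Yes T348I replicate 1 (0.10), both as edgeR adjusted p, and with the DESeq2 Wald test (DESeq2 adjusted p = 0.058). TYK2 was at 71.0 and 71.9 CPM and did not pass (edgeR adjusted p = 0.69). JAK3 was barely present, at 1.43 ± 0.519 and 0.437 ± 0.349 CPM, and fell (log2 fold change -1.58, edgeR adjusted p = 4.54e-04) on at most 31 counts per library. Without Yes T348I replicate 1 the log2 fold change of JAK3 was -2.52, and over the other libraries left out in turn it ran from -1.84 to -1.20. Among the other STAT genes named here, STAT2, STAT6 and STAT4 fell and only STAT5B rose. The 3 falls also passed against a minimum change of 1.2-fold, and the rise did not. STAT2, which acts with interferon receptors, fell from 63.9 ± 0.639 to 37.1 ± 1.72 CPM (-0.78, edgeR adjusted p = 4.98e-17), and STAT6, which serves IL4 and IL13, from 145 ± 1.72 to 107.9 ± 1.82 CPM (-0.43, edgeR adjusted p = 3.91e-13). STAT4 fell from 1.89 to 0.967 CPM (edgeR adjusted p = 0.0018). STAT5B rose from 84.6 to 91.9 CPM (0.12, edgeR adjusted p = 0.012), a call lost with library size alone (edgeR adjusted p = 0.090), upper quartile factors (0.097) and without Yes WT replicate 2 (0.067). STAT5A, at 6.22 and 7.26 CPM, did not pass.

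**Figure D4:**
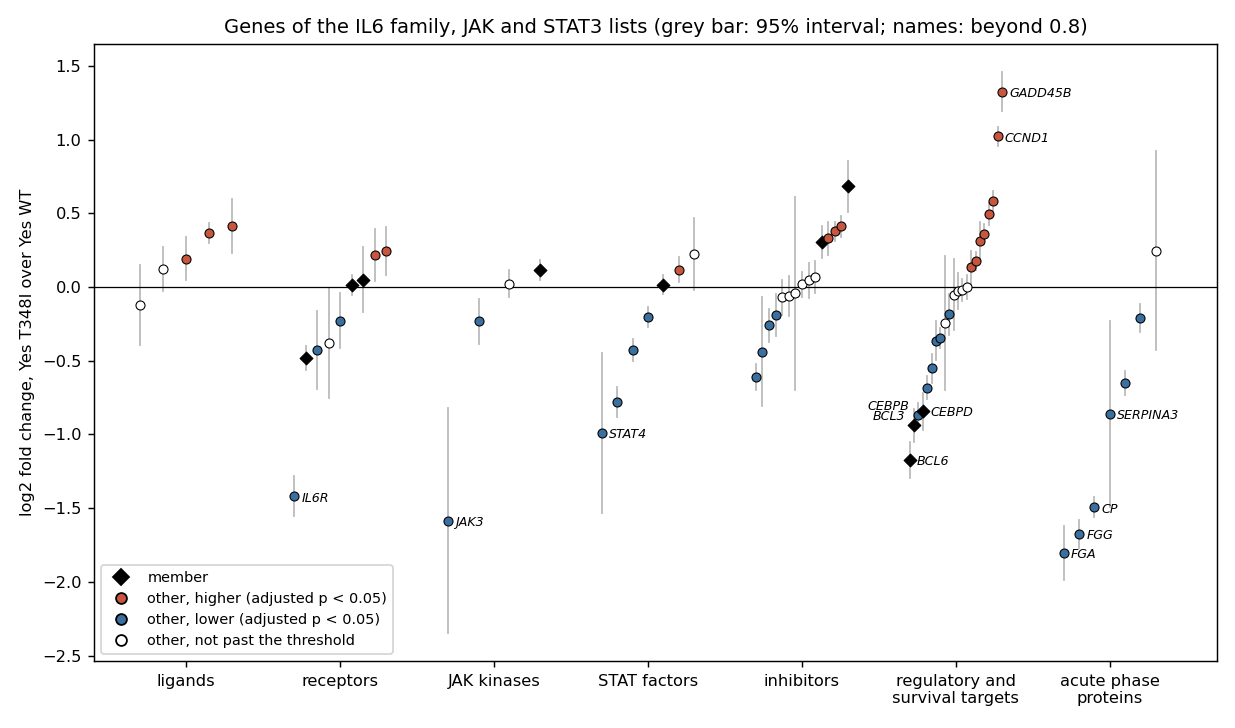
Log2 fold change (Yes T348I over Yes WT, y axis) of each tested gene in 7 lists of the pathway, ordered within each list, with 95% intervals in grey (black diamonds, members; red and blue circles, other genes past the threshold; white, not past it). IL6R lies at -1.42 among the receptors, and 6 of the 7 tested acute phase genes lie below 0 and past the threshold.

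Inhibitors moved in both directions. Of the 17 listed, 15 were tested, and with SOCS2 and SOCS3 included 5 rose and 4 fell. Over all genes tested the shares were 28.0% higher and 27.3% lower, so these counts are near the background. The other risers were phosphatases: PTPN1 from 162 ± 7.13 to 215 ± 3.89 CPM (SD, n = 3 each, log2 fold change 0.41, edgeR adjusted p = 4.99e-13), PTPN11 from 268 ± 3.25 to 348.3 ± 8.19 CPM (0.38, edgeR adjusted p = 2.99e-13), and PTPN2 from 33.1 to 41.8 CPM. PIAS3, an inhibitor of STAT3 binding to DNA, fell from 93.1 ± 1.82 to 60.9 ± 1.67 CPM (-0.61, edgeR adjusted p = 8.23e-16). None of the remaining SOCS genes, SOCS1 and SOCS4 to SOCS7, passed the test, although their differences from SOCS2 and SOCS3 were not tested. SOCS1 rested on 10 to 18 counts per library, and the 95% interval of its log2 fold change was wide, from -0.70 to 0.61. CISH, a relative of SOCS2 that is induced by STAT5, fell from 3.47 to 2.55 CPM (-0.44, edgeR adjusted p = 0.040), a call lost under 7 of 14 alternatives, among them without Yes WT replicate 3 (-0.27, edgeR adjusted p = 0.28) or 2 (0.0501) and without Yes T348I replicate 1 (0.0808) or 2 (0.105). The growth hormone receptor GHR had at most 1 count in any library and the prolactin receptor PRLR at most 6, while the erythropoietin receptor EPOR fell from 9.25 to 6.56 CPM (edgeR adjusted p = 1.58e-04).

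Other STAT3 targets did not move as one with BCL3, BCL6 and CEBPD. Of 22 listed regulators and survival genes, the 3 members included, 8 rose and 9 fell, with a median log2 fold change of -0.04. CEBPB, the relative of CEBPD, fell from 242 ± 10.2 to 132 ± 10.8 CPM (SD, n = 3 each, log2 fold change -0.87, edgeR adjusted p = 2.21e-21). In contrast the cyclin gene CCND1 rose from 260.2 ± 0.988 to 529 ± 14.7 CPM and the stress gene GADD45B from 16.3 ± 0.609 to 40.9 ± 2.25 CPM, log2 fold changes of 1.02 and 1.33 (edgeR adjusted p = 2.30e-27 and 1.17e-20). Acute phase genes were mostly lower where they could be tested. Of 18 listed, 7 were tested, 6 fell and none rose, with a median log2 fold change of -0.86. Among all genes tested 27.3% fell and 28.0% rose. Against a minimum change of 1.2-fold 4 of the acute phase genes (FGA, FGG, CP and C3) were lower, beside 12.5% of all genes tested. C3 fell from 129 ± 2.64 to 82.2 ± 1.43 CPM (-0.65, edgeR adjusted p = 5.60e-18). SERPINA3, which was called lower, rested on 7 to 30 counts per library, and its libraries overlapped between groups. CP, which encodes the copper carrier ceruloplasmin, fell from 427 ± 6.63 to 152 ± 2.82 CPM (-1.49, edgeR adjusted p = 9.81e-33), beside FGG at -1.67 and FGA at -1.80. The third fibrinogen chain gene, FGB, fell less, from 60.5 ± 2.79 to 52.3 ± 1.16 CPM (-0.21, edgeR adjusted p = 2.88e-04), and did not pass against a minimum change of 1.2-fold. The 11 untested genes, among them CRP, SAA1 and HAMP, had at most 14 counts in any library. Some of these few counts were higher in Yes T348I: CRP had 0, 1 and 0 in Yes WT against 6, 4 and 2, and LBP 2, 7 and 1 against 11, 14 and 10. Others were lower: HPX had 7, 7 and 9 against 3, 4 and 6, and SAA2 2, 2 and 2 against 0, 1 and 0.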

How the data were processed

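Polyadenylated RNA of 6 libraries was counted per gene, and the deposited values are raw counts, 1 file per library with Ensembl identifiers. STAR 2.5.1b, Trimmomatic 0.35, CASAVA 1.8.2 and the build GRCh38 are listed, without roles, in the submitters' processing notes. For the annotation release: not given in the sources used here. Counts of the reverse strand were used, per the labels' stranded kit, and the 4 summary lines (17.9% to 19.7% of reads per library) were left out. Multiply mapped reads stand in a summary line, outside the gene counts, which lowers genes with close copies. A name table gave symbols for 41844 identifiers, and positions came from GENCODE 29.

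Counts were tested with edgeR 4.0.16 in R 4.3.3 (filterByExpr with minimum count 10, TMM scaling, quasi-likelihood F-test, no covariate, Benjamini-Hochberg over 14723 genes, threshold 0.05), and glmTreat tested against a minimum change of 1.2-fold. CPM values are TMM-scaled, SE and 95% intervals are of the log2 fold change, and 3 ratios of members had exact permutation tests. In simulated data for this comparison (14531 genes) edgeR called 55.2% of the 67 genes altered 1.2-fold, 74.6% of the 67 at 1.5-fold and 92.4% of the 66 at 2-fold, with 10 false calls of 158. Far fewer genes were altered there than the 55.3% called in the real data. These shares therefore need not hold for the real comparison.

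The members and lists were chosen with earlier results of these data known. The named genes are all members, YES1, every ligand, receptor, JAK and STAT gene listed (except a gene that is not reported here), up to 3 further genes per list with the lowest adjusted p past the threshold, and marker genes. Other genes named, such as FGB, PTPN2, CRP and SOCS4, were singled out after their values were seen. Alternatives were other scalings (DESeq2 1.42.0 size factors, upper quartile, library size), no low-count filter, the DESeq2 Wald test, limma-voom (limma 3.58.1), the unstranded column, a replicate block and leaving out each library. They were read on the wider lists as an addition made after the data were seen.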

Additional observations from a re-analysis of the deposited data

How the results depend on the processing

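OSMR, SOCS3, SOCS2, BCL3, BCL6 and CEBPD kept their direction and their call under all 14 alternatives, and JAK1 under 11. Log2 fold changes over these alternatives ran from -1.21 to -1.13 for BCL6, -1.001 to -0.87 for BCL3, -0.91 to -0.79 for CEBPD, -0.52 to -0.46 for OSMR, 0.26 to 0.34 for SOCS3 and 0.64 to 0.71 for SOCS2. Genes with no call changed sign close to 0. With library size alone and with upper quartile factors the log2 fold change was -0.025 and -0.028 for IL6ST, -0.023 and -0.026 for STAT3, and -0.015 and -0.018 for TYK2. Leaving out single libraries gave -0.0061 to 0.054 for IL6ST, -0.0043 to 0.13 for LIFR, and -0.0071 to 0.047 for TYK2, with -0.0071 without Yes T348I replicate 1 and -0.0032 without Yes WT replicate 1. IL6ST was at -0.00035 without Yes T348I replicate 3. Genes at least 2-fold higher numbered 129, and 200 with no low-count filter. With the replicate number as a block, 4054 genes were higher and 3936 lower, the members numbered 3 and 4, and no call of a member changed. Libraries that share a number did not deviate together (correlations -0.028, 0.0014 and -0.019 over genes). With 3 libraries per group this cannot show whether such libraries were handled together. Over 31 further genes named from the lists, 394 of 434 values kept direction and call. Depth limits LIFR, JAK3, STAT4, SOCS1 and SERPINA3, which rest on few counts.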
